A study of Homo sapiens with 6 samples.

Results

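The RBM, SRSF and HNRNP genes are 3 families that encode proteins binding RNA in the nucleus. The members described here were chosen by symbol, with earlier results of these data known. The symbols were RBM followed by a number and at most 1 letter A, B or L, SRSF followed by a number, or any that begins with HNRNP. Read-through symbols with a hyphen and pseudogene symbols were left out (HNRNPUL2-BSCL2 and HNRNPA1P48). This gave 74 of the 33514 gene symbols in the count tables, of which 37 were RBM genes, 12 SRSF genes and 25 HNRNP genes. RNA was sequenced in PC3, a human prostate cancer cell line from a bone metastasis, cultured in RPMI medium with 10% serum. There were 3 groups of 2 libraries: cells without treatment (control), cells 2 h after 50 µM heme was added to the medium, and cells 4 h after it. The treatment labels name no vehicle and no separate untreated cells for 2 h and 4 h. A difference from control therefore cannot be assigned to heme alone. Heme, the iron-bearing cofactor of hemoglobin and many enzymes, was set in the series' title beside the plasma protein hemopexin, which binds it, and the gene MYC. Nothing in the labels says that the replicates were grown apart, and p-values therefore reflect only how far these libraries differ, which may be technical spread.

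A messenger RNA is bound from its synthesis on by proteins that decide which exons are joined, where the transcript ends, how it leaves the nucleus and how long it lasts. SR proteins, the products of the SRSF genes, carry RNA recognition motifs and a tail rich in arginine and serine, and mostly promote the use of the exons they bind. The hnRNPs, products of the HNRNP genes, coat nascent transcripts and often act against SR proteins at the same exons. RBM is a naming class for proteins with an RNA recognition motif, whose members serve in the spliceosome, the nucleolus, RNA decay or RNA methylation. SR protein and hnRNP genes are known to hold their own level by splicing some of their RNA into forms that nonsense-mediated decay removes.

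Gene counts summed to between 53129375 and 55537611 per library. Levels are given as CPM, counts scaled to a common library total. A count of 0 allows up to 0.0565 CPM in the shallowest library, reckoned on its unscaled total. Along the first principal component (58.0% of the variance) replicate 1 of the 2 h group had a score of 55.6 and replicate 2 of 39.1, and the other 4 libraries scored between -27.0 and -19.2. Of the markers set for PC3, KRT8, KRT18, EPCAM and CD44 were present at over 277 CPM in every library and VIM at over 13.1 CPM. KLK3, a prostate secretory protease set as absent from PC3, had 0 counts in every library. The summed level of 7 markers of blood, fibroblast, endothelial and red cells was 89.5 to 95.2 CPM in the control libraries, 119.7 to 142 CPM at 2 h and 90.7 to 93.7 CPM at 4 h. COL1A1, PECAM1 and CD14 rose at 2 h by the edgeR test and CD68 did not pass it (log2 0.70, 0.86, 1.87 and 0.10), HBB was at 0 in every library and DCN and PTPRC were below 0.1 CPM. The part of these markers in the results below was not tested. HMOX1, the heme-degrading enzyme that heme induces, had 10.4 and 11.4 CPM in the control libraries, 451 and 327 CPM at 2 h and 382 and 341 CPM at 4 h.

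Of the 74 members, 67 had enough counts to be tested. The 7 others were HNRNPCL1, HNRNPCL3, HNRNPCL4, RBM11, RBM20, RBM46 and SRSF12, with at most 8 counts in any library. HNRNPCL3 had 0 counts in every library. Per kilobase of merged exons, the control means of HNRNPAB (173 CPM per kb), HNRNPF (164 CPM per kb) and HNRNPA1 (157 CPM per kb) were the highest among the members. SRSF6, at 104 CPM per kb, was the highest of the SRSF genes, and RBM3, at 94.7 CPM per kb, of the RBM genes. These per-length levels rest on all exons annotated to a gene, so a gene with long rarely used exons is set too low.

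After 2 h of heme most of these genes stood below the control level, and at 4 h they stood near it. At 2 h, 37 of 67 tested members fell (55.2%) and 2 rose, where 15.8% of all 16209 genes tested fell and 15.9% rose. The median difference of the members at 2 h was -0.31 on the log2 scale, against 0.02 for all genes tested. The fall reached SRSF genes (7 of 11), HNRNP genes (12 of 22) and RBM genes (18 of 34). It was led by SRSF7, SRSF2, RBM12, RBM25 and the low-count RBM34. All values are of RNA, and protein levels were not measured. The members that rose were RBM47 and RBM15B. At 4 h against control 0 of 67 members were called. Calls are edgeR quasi-likelihood tests with Benjamini-Hochberg adjusted p under 0.05 over all genes. Each difference is on the log2 scale and carries its standard error (SE), with n = 2 libraries per group.

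The count of members that fell depended on the number of control libraries: it was 20 without control replicate 1, where 6.59% of all genes fell, and 21 without control replicate 2, where 9.33% fell. In each of these cases 1 member rose, where 7.16% and 8.35% of all genes rose. Without 2 h replicate 1 the count was 29 (11.7% of all genes) and without 2 h replicate 2 it was 38 (20.2%). Of the 37 members that fell, 31 had a lower CPM in 2 h replicate 1, which also lay farther out on the first principal component, than in 2 h replicate 2. In all 37, both 2 h libraries lay below both control libraries, as they did for 50 of the 67 tested members and for 33.2% of all genes tested. Calls of 22 members, RBM15B among them, were lost without at least 1 of the 4 control and 2 h libraries, with adjusted p between 0.0504 and 0.367 by edgeR there. Those of HNRNPA1, HNRNPA3, HNRNPD, RBM7, RBM17, RBM22 and RBM39 were lost without either control library and without 2 h replicate 1. Those of HNRNPH3, RBM5, RBM8A, RBM15B, RBM28 and SRSF4 were lost without either control library, as was that of RBM6, which was also lost without 2 h replicate 2. The calls of HNRNPR, RBM18, SRSF8 and SRSF10 were lost only without control replicate 1, where their log2 differences were -0.41, -0.43, -0.37 and -0.45. Those of HNRNPM, RBM3 and RBM34 were lost only without control replicate 2, where theirs were -0.36, -0.35 and -1.35. That of HNRNPA2B1 was lost only without 2 h replicate 1.

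**Figure D1:**
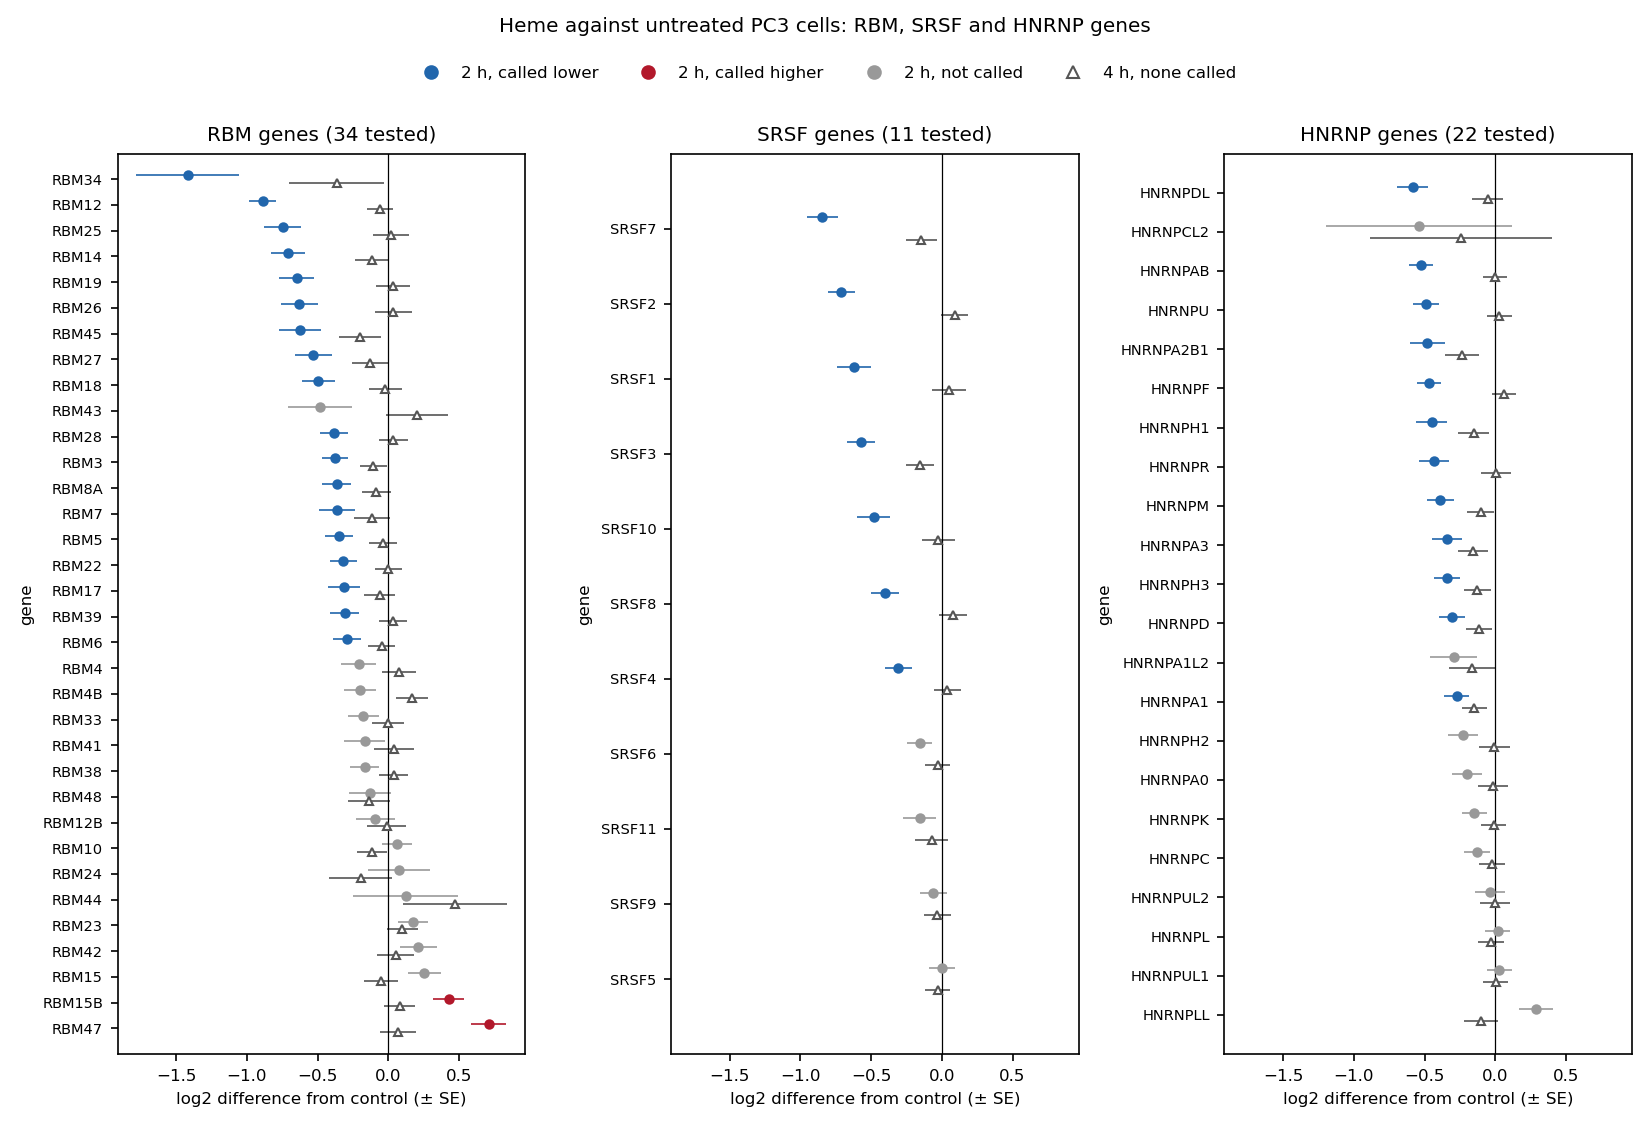
Log2 difference from control (x axis, with its SE) for every tested member, by family, at 2 h (filled circles) and 4 h (open triangles) of heme, 2 libraries per group. The 2 h circles of 37 genes are called lower (blue) and of 2 genes higher (red), and the 4 h triangles lie between -0.37 and 0.47 with none called.

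Summed over its members, each family was lower in both 2 h libraries than in the 4 others. The SRSF genes summed to 2652 and 2564 CPM in the control libraries, 1866 and 2056 CPM at 2 h and 2626 and 2449 CPM at 4 h. The HNRNP genes summed to 7299 and 7184 CPM in the control libraries, 5656 and 6038 CPM at 2 h and 7112 and 6799 CPM at 4 h. The RBM genes summed to 2969.9 and 2985 CPM in the control libraries, 2212 and 2382 CPM at 2 h and 2946 and 2894 CPM at 4 h. All members together took 1.26% of the gene counts of each control library, 0.999% and 1.09% at 2 h, and 1.23% and 1.22% at 4 h. These are relative levels, so fewer molecules of these genes per cell and more of other RNA cannot be told apart.

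**Figure D2:**
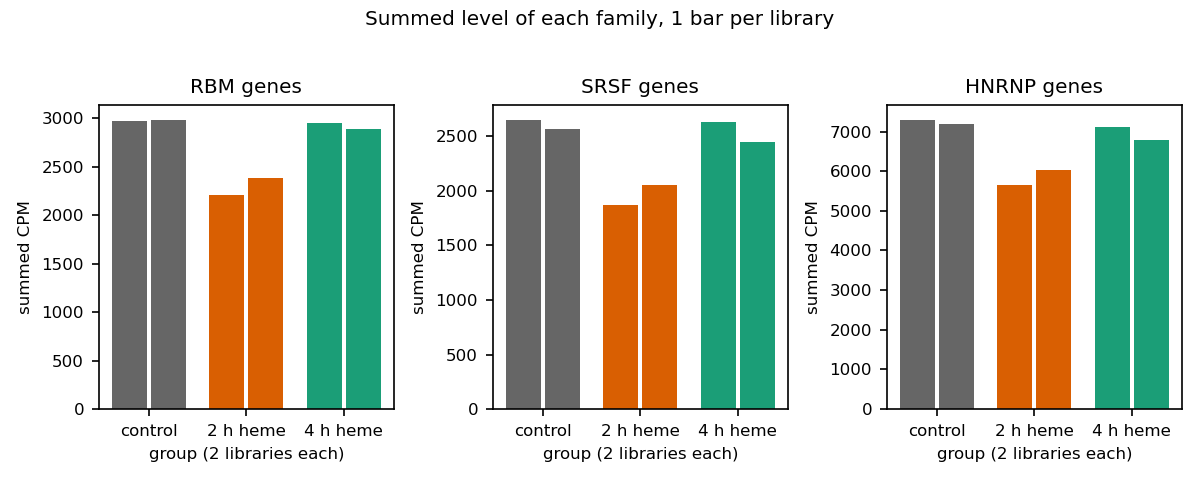
Summed CPM of the RBM, SRSF and HNRNP genes (y axis, from 0), 1 bar per library, in control cells and after 2 h and 4 h of heme. In each family both 2 h bars are the lowest of the 6, with the sums given in the text.

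Of the SRSF genes, SRSF7, SRSF2, SRSF1, SRSF3, SRSF10, SRSF8 and SRSF4 fell at 2 h and 4 of 11 were not called. SRSF7, which binds exonic enhancers and serves as an adapter for mRNA export, stood at 55.7% of its control mean at 2 h and 90.4% at 4 h. SRSF7 had 299.6 and 281 CPM in the control libraries, 145 and 178 CPM at 2 h and 277 and 249 CPM at 4 h. At 2 h there was no overlap with the controls (log2 -0.84, SE 0.11, edgeR adjusted p = 7.73e-05), and at 4 h both libraries still lay just below both controls (log2 -0.14, SE 0.11, not called).

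SRSF2, a marker protein of nuclear speckles, and SRSF1, the classical SR splicing factor, followed. SRSF2 had 269.7 and 269.8 CPM in the control libraries, 156 and 174 CPM at 2 h and 300.0 and 275 CPM at 4 h. SRSF1 had 295 and 279 CPM in the control libraries, 159 and 214 CPM at 2 h and 305 and 289 CPM at 4 h. For both genes the 2 h values were the lowest of the 6 (log2 -0.71, SE 0.10, edgeR adjusted p = 1.09e-04 for SRSF2, and log2 -0.62, SE 0.12, edgeR adjusted p = 0.00156 for SRSF1). SRSF1 had 2 h libraries that lay far apart, while those of SRSF2 lay closer together. At 4 h the difference from control was log2 0.09, SE 0.10 for SRSF2 and log2 0.05, SE 0.12 for SRSF1.

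The RNA of SRSF3, a small SR protein that also couples splicing to export to the cytoplasm, was also lower. SRSF3 had 521 and 497 CPM in the control libraries, 338 and 346 CPM at 2 h and 498 and 415 CPM at 4 h. Its 2 h values were the lowest (log2 -0.57, SE 0.10, edgeR adjusted p = 7.05e-04), and 1 of the 4 h libraries lay well below the other. SRSF10 had 137 and 130.4 CPM in the control libraries, 83.2 and 108 CPM at 2 h and 135 and 128 CPM at 4 h. SRSF10, which acts as a splicing repressor when it loses its phosphate groups, thus had its lowest values at 2 h, with replicate 1 below replicate 2 (log2 -0.48, SE 0.12, edgeR adjusted p = 0.00662). SRSF8 had 93.5 and 88.8 CPM in the control libraries, 68.9 and 68.9 CPM at 2 h and 100.1 and 92.7 CPM at 4 h. SRSF8, an expressed retrogene close in sequence to SRSF2, had nearly equal 2 h libraries below all others (log2 -0.40, SE 0.10, edgeR adjusted p = 0.00664). SRSF4 had 93.9 and 92.4 CPM in the control libraries, 76.7 and 73.7 CPM at 2 h and 97.3 and 94.2 CPM at 4 h. SRSF4, whose product has a long arginine-serine tail, had its 2 h libraries below all others too (log2 -0.31, SE 0.10, edgeR adjusted p = 0.024).

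The remaining 4 tested SR genes were not called at 2 h. SRSF5, of the same branch of the family as SRSF4 and SRSF6, was nearly level. SRSF5 had 208 and 205 CPM in the control libraries, 211 and 202 CPM at 2 h and 202 and 203 CPM at 4 h. The groups overlapped, and the adjusted p at 2 h was 0.995 by edgeR. SRSF6 had 482 and 472 CPM in the control libraries, 412 and 444 CPM at 2 h and 476 and 458 CPM at 4 h, with both 2 h libraries below the controls (log2 -0.16, SE 0.09, edgeR adjusted p = 0.194). SRSF9 had 98.8 and 99.7 CPM in the control libraries, 98.8 and 91.6 CPM at 2 h and 94.4 and 99.8 CPM at 4 h, with the 2 h libraries at or just below the controls and overlapping the 4 h ones (log2 -0.06, SE 0.10). SRSF11 had 152 and 149 CPM in the control libraries, 116 and 154 CPM at 2 h and 141 and 145 CPM at 4 h. In SRSF11 the 2 h libraries lay on opposite sides of the controls (log2 -0.16, SE 0.12).

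**Figure D3:**
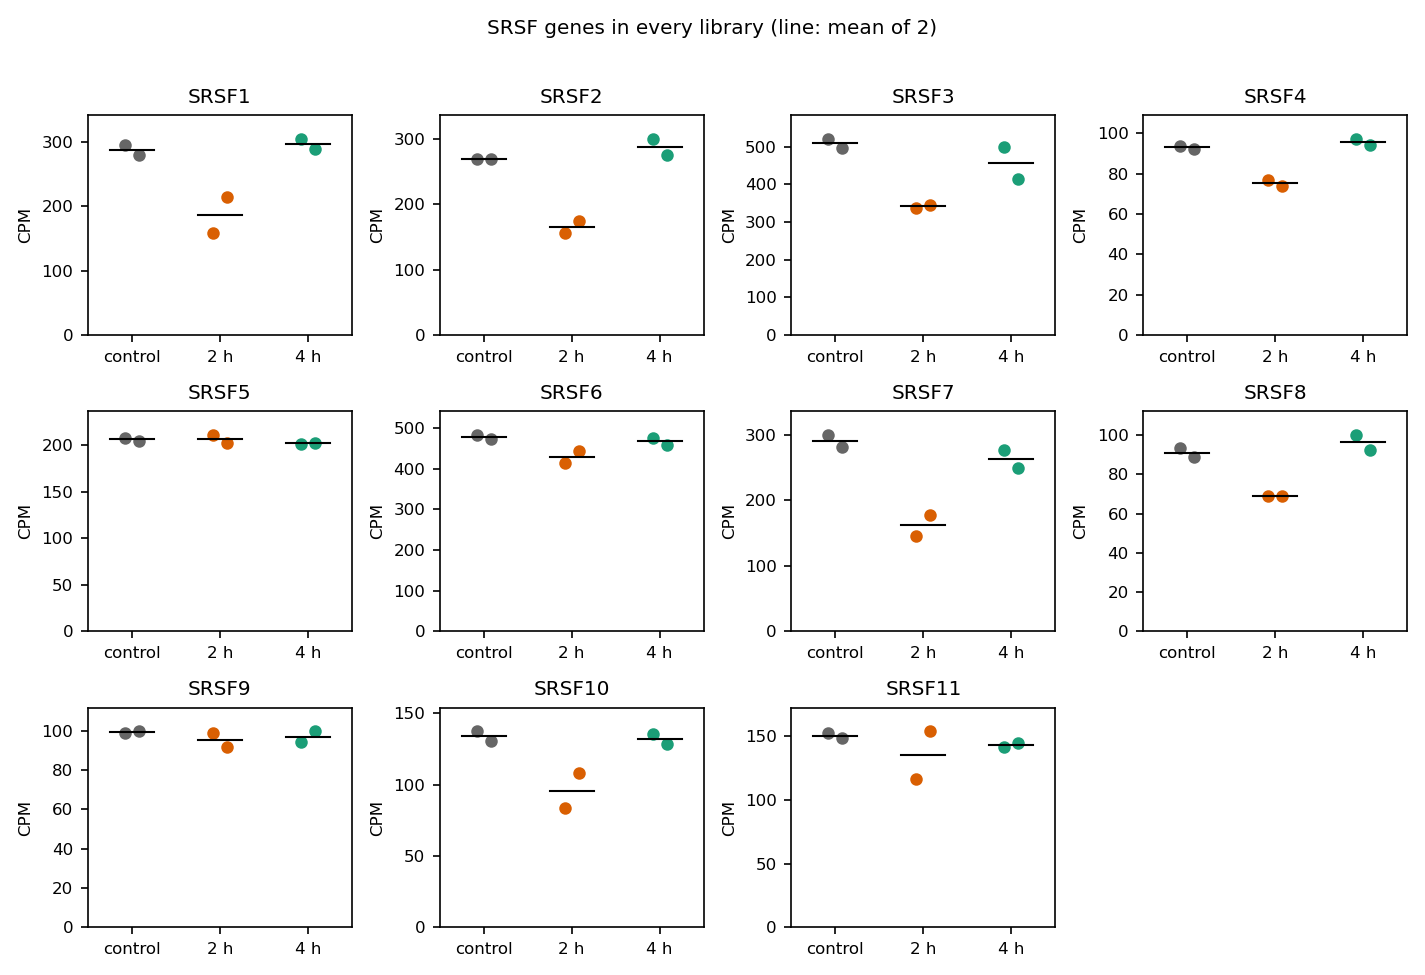
CPM of the 11 tested SRSF genes in each of 6 libraries (points, y axes from 0), with the mean of each group of 2 as a line. The 2 h points are the lowest in SRSF1, SRSF2, SRSF3, SRSF4, SRSF7, SRSF8 and SRSF10, the 7 genes called lower, and in SRSF6, which was not called. In SRSF5, SRSF9 and SRSF11 the 2 h points mix with the other groups.

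Among the RBM genes the largest called falls in log2 units were those of RBM34, RBM12, RBM25, RBM14 and RBM19. RBM12 encodes a protein with several RNA recognition motifs. RBM12 had 382 and 374 CPM in the control libraries, 198 and 210.3 CPM at 2 h and 381 and 345 CPM at 4 h. Its libraries fell into a low group at 2 h and a high group of the 4 others (log2 -0.89, SE 0.09, edgeR adjusted p = 1.57e-05). RBM12 shares exons on the same strand with CPNE1 in the annotation, so its count depends on how shared reads were assigned. RBM25, a splicing factor that works with the U1 particle at the start of introns, had a wider spread at 2 h. RBM25 had 223 and 211 CPM in the control libraries, 108 and 151 CPM at 2 h and 224 and 216 CPM at 4 h. Both 2 h libraries still lay below all others (log2 -0.75, SE 0.13, edgeR adjusted p = 6.54e-04).

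RBM14 is a paraspeckle protein and transcriptional coactivator. RBM14 had 195 and 226 CPM in the control libraries, 114 and 143 CPM at 2 h and 179 and 209 CPM at 4 h. The 2 h libraries lay below both controls (log2 -0.71, SE 0.12, edgeR adjusted p = 6.77e-04), and the 4 h libraries overlapped the controls. RBM14 overlaps the read-through gene RBM14-RBM4.

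All 6 RBM genes set in the group of the nucleolus and nuclear RNA decay fell at 2 h, where 15.8% of all genes fell. Their median was -0.58, and the group was set with earlier results of these data known. RBM19 serves in processing the RNA of the small ribosomal subunit. RBM19 had 58.6 and 52.6 CPM in the control libraries, 32.3 and 38.6 CPM at 2 h and 53.9 and 59.8 CPM at 4 h. Both 2 h values were the lowest (log2 -0.65, SE 0.12, edgeR adjusted p = 0.00116). RBM28, a nucleolar protein of large subunit assembly, also fell (log2 -0.39, SE 0.10). RBM34, the relative of a nucleolar yeast protein, had the largest log2 difference of all members but few counts. RBM34 had 0.945 and 1.07 CPM in the control libraries, 0.37 and 0.382 CPM at 2 h and 0.716 and 0.848 CPM at 4 h. Its 2 h difference was log2 -1.42, SE 0.36, edgeR adjusted p = 0.00877. The raw counts of RBM34 numbered 21 and 22 in the 2 h libraries, against 49 and 58 in the control libraries, and the gene overlaps ARID4B on the same strand, so this value is uncertain. RBM26 (log2 -0.63, SE 0.13) and RBM27 (log2 -0.53, SE 0.13), which encode zinc finger proteins that link polyadenylated nuclear RNA to decay, fell. So did RBM7 (log2 -0.36, SE 0.13), whose product guides non-adenylated RNA to the nuclear exosome.

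The 11 RBM genes with a role at the spliceosome were also grouped with earlier results known. Of them 6 fell and 0 rose, where 15.8% of all genes fell and 15.9% rose. After RBM25 these were RBM5 (log2 -0.35, SE 0.10), RBM22 (log2 -0.32, SE 0.10), RBM39 (log2 -0.31, SE 0.10), RBM17 (log2 -0.31, SE 0.11) and RBM6 (log2 -0.29, SE 0.10). RBM22 is part of the catalytic spliceosome, RBM39 and RBM17 help to define splice sites, and RBM5 and RBM6 are neighbouring genes whose proteins regulate exon choice. RBM5 and RBM6 overlap on the same strand, so reads that fall on both may be counted for neither. RBM10, the X-linked relative of RBM5, was not called (log2 0.06), nor were RBM23 (log2 0.17), RBM42 (log2 0.21), RBM41 (log2 -0.17) and RBM48 (log2 -0.13).

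RBM47 and RBM15B moved the other way. RBM47, an epithelial splicing regulator and cofactor of RNA editing by APOBEC1, was the member with the largest called rise. RBM47 had 21 and 22.7 CPM in the control libraries, 33.1 and 38.4 CPM at 2 h and 22.1 and 23.7 CPM at 4 h. Both 2 h libraries lay above all others (log2 0.71, SE 0.12, edgeR adjusted p = 7.66e-04), at 164% of the control mean at 2 h and 105% at 4 h. RBM15B had 78.7 and 82.7 CPM in the control libraries, 115 and 102 CPM at 2 h and 78.5 and 92 CPM at 4 h. RBM15B, an adapter of the m6A methyltransferase, also had its 2 h libraries above all others (log2 0.43, SE 0.11, edgeR adjusted p = 0.00837), a call that was lost without control replicate 1 and without control replicate 2. Its paralog RBM15 had 26.5 and 26 CPM in the control libraries, 30.1 and 32.5 CPM at 2 h and 23.9 and 26.6 CPM at 4 h, and was not called (log2 0.25, SE 0.12, edgeR adjusted p = 0.116). RBM8A, a core subunit of the exon junction complex, fell (log2 -0.37, SE 0.10).

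The cold-inducible RBM3 fell by 0.38 on the log2 scale (SE 0.09), as did RBM18 (log2 -0.50, SE 0.12) and RBM45 (log2 -0.62, SE 0.15), an RNA-binding protein studied in neurons. RBM4 (log2 -0.21) and its close paralog RBM4B (log2 -0.20), which regulate alternative splicing and overlap each other on opposite strands, were not called. RBM38, a stabilizer of the CDKN1A message, was not called either (log2 -0.17). Also not called were RBM33 (log2 -0.18), RBM43 (log2 -0.48), RBM12B (log2 -0.09), RBM24 (log2 0.07) and RBM44 (log2 0.12).

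Of 22 tested HNRNP genes 12 fell at 2 h and 0 rose, where 15.8% of all genes fell and 15.9% rose. The 5 largest called falls were those of HNRNPDL, HNRNPAB, HNRNPU, HNRNPA2B1 and HNRNPF. HNRNPDL and HNRNPAB belong with the A/B type, proteins that bind AU-rich or UAG-containing RNA. HNRNPDL had 151 and 145 CPM in the control libraries, 88.8 and 108 CPM at 2 h and 147 and 138 CPM at 4 h. HNRNPAB had 366 and 375 CPM in the control libraries, 259 and 256 CPM at 2 h and 369 and 371 CPM at 4 h. Neither gene's 2 h libraries overlapped its controls (log2 -0.58, SE 0.11, edgeR adjusted p = 0.00107 for HNRNPDL, and log2 -0.53, SE 0.09, edgeR adjusted p = 5.14e-04 for HNRNPAB). The HNRNPAB libraries agreed closely within each group.

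HNRNPU, also known as scaffold attachment factor A, binds nuclear RNA and chromatin. HNRNPU had 895 and 822 CPM in the control libraries, 597 and 624 CPM at 2 h and 918 and 834 CPM at 4 h. Its 2 h libraries lay below all others (log2 -0.49, SE 0.09, edgeR adjusted p = 0.00113). HNRNPA2B1, a reader of exon and mRNA transport signals, had 2 h libraries that lay far apart. HNRNPA2B1 had 645 and 630.3 CPM in the control libraries, 382 and 532 CPM at 2 h and 537 and 547 CPM at 4 h. Replicate 1 was the lowest of the 6 and replicate 2 lay just under the 4 h libraries (log2 -0.48, SE 0.12, edgeR adjusted p = 0.00852), and without replicate 1 the difference was log2 -0.26 (edgeR adjusted p = 0.0584). HNRNPF binds runs of guanines beside exons. HNRNPF had 539 and 529.7 CPM in the control libraries, 388 and 385 CPM at 2 h and 568 and 546 CPM at 4 h. Its 2 h values were nearly equal and below all others (log2 -0.47, SE 0.09, edgeR adjusted p = 0.00108).

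The other hnRNP genes that fell were HNRNPH1 (log2 -0.45, SE 0.11) and HNRNPH3 (log2 -0.34, SE 0.09), relatives of HNRNPF, and HNRNPR (log2 -0.43, SE 0.11), HNRNPM (log2 -0.39, SE 0.09), HNRNPA3 (log2 -0.34, SE 0.11), HNRNPD (log2 -0.31, SE 0.09) and HNRNPA1 (log2 -0.27, SE 0.09). HNRNPD, also called AUF1, binds AU-rich elements of unstable messages, and HNRNPA1 is a well studied splicing repressor of the A/B type. HNRNPA1 has many processed copies in the genome, among them HNRNPA1L2 (log2 -0.29, not called), so its counts are uncertain. HNRNPC (log2 -0.13), which binds runs of uridines, HNRNPK (log2 -0.15), which binds runs of cytidines, and HNRNPL (log2 0.02), which binds CA repeats, were not called although each had over 200 CPM in every library. HNRNPUL1 (log2 0.03), HNRNPUL2 (log2 -0.04), HNRNPA0 (log2 -0.20), HNRNPH2 (log2 -0.23) and HNRNPCL2 (log2 -0.54), which had at most 12 counts in a library, were not called. HNRNPLL, a relative of HNRNPL known for its role in lymphocytes, had the highest 2 h difference of the family. HNRNPLL had 37.1 and 37.4 CPM in the control libraries, 43.1 and 47.9 CPM at 2 h and 37.4 and 32.1 CPM at 4 h. Its 2 h libraries lay above all others but did not pass the test (log2 0.29, SE 0.12, edgeR adjusted p = 0.076).

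The promoters of 5 members were read from RefSeq (GRCh38.p14), from 250 bases before to 50 after the first listed start. They are those of the member with the smallest p among the lower ones of each family that has an entry (RBM12, SRSF7 and HNRNPAB) and of both members that rose. In GENCODE release 29 on GRCh38 the genes are RBM12 (ENSG00000244462.7, chromosome 20 from 35648925 to 35664956), SRSF7 (ENSG00000115875.18, chromosome 2 from 38743599 to 38751494), HNRNPAB (ENSG00000197451.11, chromosome 5 from 178204507 to 178211163), RBM47 (ENSG00000163694.14, chromosome 4 from 40423267 to 40630875) and RBM15B (ENSG00000259956.1, chromosome 3 from 51391268 to 51397908). Capitals mark the E-box CACGTG (the site of MYC and MAX), the CCAAT box (CCAAT, the site of NF-Y) and the G-run pattern (4 runs of GGG with 1 to 7 bases between them), each on either strand, and a CCAAT box can lie inside a G-run pattern.
RBM12, chr20:35664851-35665150, minus strand: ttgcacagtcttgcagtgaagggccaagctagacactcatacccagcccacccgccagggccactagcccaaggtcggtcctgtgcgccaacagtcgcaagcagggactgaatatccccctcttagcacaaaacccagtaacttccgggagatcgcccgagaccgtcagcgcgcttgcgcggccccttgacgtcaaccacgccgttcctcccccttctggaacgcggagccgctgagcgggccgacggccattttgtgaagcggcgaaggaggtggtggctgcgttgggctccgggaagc
SRSF7, chr2:38751445-38751744, minus strand: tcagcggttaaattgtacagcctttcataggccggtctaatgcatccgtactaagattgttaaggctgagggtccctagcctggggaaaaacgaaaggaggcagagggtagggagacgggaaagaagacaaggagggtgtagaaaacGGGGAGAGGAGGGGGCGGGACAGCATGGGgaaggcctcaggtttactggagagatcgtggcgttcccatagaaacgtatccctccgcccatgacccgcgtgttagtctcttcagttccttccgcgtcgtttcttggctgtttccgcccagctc
HNRNPAB, chr5:178204283-178204582, plus strand: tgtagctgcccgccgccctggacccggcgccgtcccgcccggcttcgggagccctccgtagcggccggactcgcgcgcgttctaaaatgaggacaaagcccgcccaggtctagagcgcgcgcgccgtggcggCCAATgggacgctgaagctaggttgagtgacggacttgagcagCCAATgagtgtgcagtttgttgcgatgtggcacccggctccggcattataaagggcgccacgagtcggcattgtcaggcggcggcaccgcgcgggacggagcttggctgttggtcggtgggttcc
RBM47, chr4:40630545-40630844, minus strand: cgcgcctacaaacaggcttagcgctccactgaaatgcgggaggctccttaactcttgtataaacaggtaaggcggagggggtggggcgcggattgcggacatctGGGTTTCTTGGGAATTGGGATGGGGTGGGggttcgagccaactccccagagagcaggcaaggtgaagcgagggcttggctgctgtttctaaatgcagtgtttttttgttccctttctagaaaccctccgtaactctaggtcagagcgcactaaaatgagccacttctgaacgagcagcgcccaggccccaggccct
RBM15B, chr3:51391035-51391334, plus strand: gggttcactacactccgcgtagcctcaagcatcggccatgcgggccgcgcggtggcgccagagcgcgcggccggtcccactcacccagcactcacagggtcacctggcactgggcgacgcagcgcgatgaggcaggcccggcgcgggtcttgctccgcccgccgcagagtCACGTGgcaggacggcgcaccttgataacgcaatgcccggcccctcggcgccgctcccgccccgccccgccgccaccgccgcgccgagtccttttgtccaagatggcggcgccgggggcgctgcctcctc

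The RBM12 window held none of these motifs, SRSF7 a G-run pattern, HNRNPAB CCAAT boxes, RBM47 a G-run pattern with a CCAAT box inside it on the opposite strand, and RBM15B an E-box. Of the 74 members 67 had a promoter entry, of which 34 belonged to members that fell at 2 h. The G-run pattern stood in 5 of these 34 (14.7%), in 7 of the 27 other tested members (25.9%) and in 33.6% of the promoters of all genes tested. The E-box stood in 6 of the 34 (17.6%), in 4 of the 27 (14.8%) and in 9.77% of all tested. The CCAAT box stood in 18 of the 34 (52.9%), in 16 of the 27 (59.3%) and in 36.2% of all tested. Across the promoters of all 27305 genes in the table, tested or not, the shares were 24% for the G-run pattern, 7.43% for the E-box and 35.7% for the CCAAT box. A match is a string of letters and no measured site.

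Some annotated features that the choice of symbols did not use were also read. In GENCODE all 12 SRSF genes, 13 of 25 HNRNP genes and 14 of 37 RBM genes have an annotated transcript of the nonsense-mediated decay class. RBM39 has the most, with 15. Such a transcript is annotated for 56.7% of tested members and for 42% of the 13669 protein-coding genes tested. It is annotated for 24 of the 37 members that fell and 14 of the 30 other tested members. The gene counts do not tell such transcripts from coding ones. The tested members span a median of 16124 bp in the genome, against 32485 bp for all protein-coding genes tested. The 37 members that fell span a median of 22006 bp and the 30 other tested members 14391.5 bp.

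The members were also split by their mean level. Of 33 members with a mean over all libraries of at least 100 CPM 25 fell, where 27.2% of the 2556 genes at that level fell. Of 34 members below it 12 fell, where 13.6% of genes at that level fell. The median log2 difference at 2 h was -0.38 for the members above that level and -0.11 for all genes above it, and -0.21 for the members below it and 0.058 for all genes below it. In the annotation 41 of 74 members overlap another gene of the tables. Of the 27 tested members with no such overlap 16 fell and 0 rose. Of all genes tested, with or without overlap, 15.8% fell and 15.9% rose. The share among all genes without overlap was not read.

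At 4 h the members stood close to control. By edgeR 0 of 67 were called and 0 had an unadjusted p under 0.05, where 0.0308% of all genes were called and 3.6% had such a p. DESeq2, which gave an adjusted p to fewer genes, called 0 members as well and 0.152% of its 9858 genes. The median difference was -0.024 on the log2 scale, and the SE of a member ran from 0.09 to 0.64 with a median of 0.11, so small differences were not detectable. Both 4 h libraries lay below both controls in 16 of 67 members and above them in 10, where 17.4% of all genes lay below and 17% above. The 8 tested A/B-type hnRNP genes, also grouped with earlier results known, had a median of -0.13 at 4 h. HNRNPA2B1 had the most negative difference of these genes (log2 -0.23, SE 0.12). The 37 members that fell stood at 37.2% to 82.7% of the control mean at 2 h (median 72.4%) and at 77.5% to 107% at 4 h (median 96.3%).

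Between the treated groups, 29 of 67 members were higher at 4 h than at 2 h and 3 were lower, where 14% of all genes were higher and 14.1% lower. This comparison shares the 2 h libraries with that of 2 h against control, so it is no separate support for it. SRSF2 had the smallest p of the SR genes (log2 0.80, SE 0.10, edgeR adjusted p = 4.01e-05), followed by SRSF7 (log2 0.70, SE 0.11, edgeR adjusted p = 3.08e-04) and SRSF1 (log2 0.67, SE 0.12, edgeR adjusted p = 9.27e-04). Of the RBM genes RBM12 (log2 0.83, SE 0.09, edgeR adjusted p = 2.50e-05), RBM25 (log2 0.77, SE 0.13, edgeR adjusted p = 5.41e-04) and RBM19 (log2 0.68, SE 0.12, edgeR adjusted p = 8.52e-04) had the smallest p. Of the HNRNP genes these were HNRNPF (log2 0.53, SE 0.09, edgeR adjusted p = 4.57e-04), HNRNPAB (log2 0.52, SE 0.09, edgeR adjusted p = 5.39e-04) and HNRNPU (log2 0.52, SE 0.09, edgeR adjusted p = 7.76e-04). The 3 members lower at 4 h than at 2 h were RBM47 (log2 -0.64, SE 0.12), RBM15B (log2 -0.35, SE 0.11) and HNRNPLL (log2 -0.39, SE 0.12). The 9 named members of the SR, RBM and HNRNP genes with the smallest p kept their calls without any 1 library. Without 4 h replicate 1 the members higher numbered 14, where 6.91% of all genes were higher. With only the compared groups in the fit 1 member was lower (12.3% of all genes), as it was without control replicate 1 (11.8%) and without control replicate 2 (11.1%).

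Other genes that act with these families were read from lists set by function, with earlier results of these data known. Of all genes tested 15.8% fell at 2 h and 15.9% rose. Of 22 SR-related genes, whose products share the arginine-serine tail or bind SR proteins, 12 fell at 2 h and 0 rose (median log2 -0.34). They included RSRC2 (log2 -0.74, SE 0.13), NKTR (log2 -0.66, SE 0.14) and the splicing activators TRA2A (log2 -0.69, SE 0.15) and TRA2B (log2 -0.50, SE 0.11). Among 11 genes for kinases and phosphatase subunits tied to SR proteins 4 fell and 1 rose (median log2 -0.10). The kinases CLK1 (log2 -0.64, SE 0.12), CLK4 (log2 -0.50, SE 0.17), PRPF4B (log2 -0.39, SE 0.13) and DYRK1A (log2 -0.33, SE 0.12) fell. PPP1R10, a nuclear targeting subunit of protein phosphatase 1, had 52.1 and 54.7 CPM in the control libraries, 184 and 144 CPM at 2 h and 46.3 and 52.9 CPM at 4 h. Its 2 h libraries lay far above all others (log2 1.62, SE 0.12, edgeR adjusted p = 1.00e-06).

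Of 45 core spliceosome genes 18 fell and 0 rose at 2 h (median log2 -0.21), where 15.8% of all genes fell and 15.9% rose. The Sm protein genes SNRPD1 (log2 -0.68, SE 0.12), SNRPE (log2 -0.59, SE 0.12) and SNRPF (log2 -0.50, SE 0.11) and the splicing factor gene CWC22 (log2 -0.68, SE 0.13) had the smallest p. Of 18 genes of nonsense-mediated decay and the exon junction complex 8 fell and 0 rose (median log2 -0.26), among them UPF3B (log2 -0.83, SE 0.15), UPF2 (log2 -0.62, SE 0.12), the export factor ALYREF (log2 -0.50, SE 0.10) and MAGOHB (log2 -0.69, SE 0.15). Of 13 genes that write, remove or read m6A 5 fell and 0 rose (median log2 -0.22). They were METTL14 (log2 -0.61, SE 0.13), ZC3H13 (log2 -0.43, SE 0.11), YTHDF1 (log2 -0.35, SE 0.09), WTAP (log2 -0.31, SE 0.10) and YTHDF2 (log2 -0.27, SE 0.09). RBM15B, the adapter of the m6A methyltransferase that rose (log2 0.43, SE 0.11), was counted among the members and not in this list.

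The list of other splicing regulators and RNA-binding proteins had 12 of 47 tested genes lower and 8 higher at 2 h (median log2 -0.12), where 15.8% of all genes were lower and 15.9% higher. ESRP1 and ESRP2, paired regulators of epithelial splicing, went opposite ways at 2 h. ESRP1 had 140.5 and 135 CPM in the control libraries, 253 and 222 CPM at 2 h and 147 and 140.3 CPM at 4 h (log2 0.79, SE 0.10, edgeR adjusted p = 6.15e-05). ESRP2 had 125 and 130.5 CPM in the control libraries, 68 and 76.3 CPM at 2 h and 139 and 161 CPM at 4 h (log2 -0.82, SE 0.11, edgeR adjusted p = 8.01e-05). The 2 h libraries of ESRP1 lay above all others and those of ESRP2 below them. MBNL2, a splicing regulator of the muscleblind family, rose (log2 1.06, SE 0.14, edgeR adjusted p = 1.15e-04), and SYNCRIP, also called hnRNP Q, fell (log2 -0.73, SE 0.11, edgeR adjusted p = 1.88e-04). In 4 h against 2 h, which shares the 2 h libraries, 14% of all genes were higher and 14.1% lower. Of the 22 SR-related genes 10 were higher there and 0 lower. SRRM1 (log2 0.46, SE 0.10), RSRC2 (log2 0.61, SE 0.13), LUC7L3 (log2 0.50, SE 0.12) and LUC7L (log2 0.44, SE 0.11) were first by p. Of the kinase and phosphatase genes 4 were higher, led by PRPF4B (log2 0.53, SE 0.13), CLK1 (log2 0.40, SE 0.12) and DYRK1A (log2 0.34, SE 0.12), and PPP1R10 was lower (log2 -1.72, SE 0.12). Of the core spliceosome genes 14 were higher, led by CWC22 (log2 0.68, SE 0.13), SNRPD1 (log2 0.55, SE 0.12), CDC5L (log2 0.54, SE 0.12) and PRPF3 (log2 0.45, SE 0.10), and 1 was lower. Of the decay and exon junction genes 8 were higher and 0 lower, led by UPF3B (log2 0.81, SE 0.15), UPF2 (log2 0.62, SE 0.12), NCBP2 (log2 0.44, SE 0.10) and MAGOH (log2 0.42, SE 0.12). Of the m6A genes YTHDF1 (log2 0.43, SE 0.09), METTL14 (log2 0.51, SE 0.13) and ZC3H13 (log2 0.40, SE 0.11) were higher and the nuclear reader YTHDC1 lower (log2 -0.35, SE 0.11). Of the other regulators 10 were higher, among them ESRP2 (log2 1.06, SE 0.11) and SYNCRIP (log2 0.66, SE 0.11), and 8 lower, among them MBNL2 (log2 -1.37, SE 0.14) and ESRP1 (log2 -0.73, SE 0.10). At 4 h against control edgeR and DESeq2 both called 0 genes of these lists, which by edgeR and at an unadjusted p under 0.05 held 1 core spliceosome gene and 3 of the other regulators, and 0 genes of the 4 remaining lists. Over all genes tested 3.6% had such a p by edgeR.

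**Figure D4:**
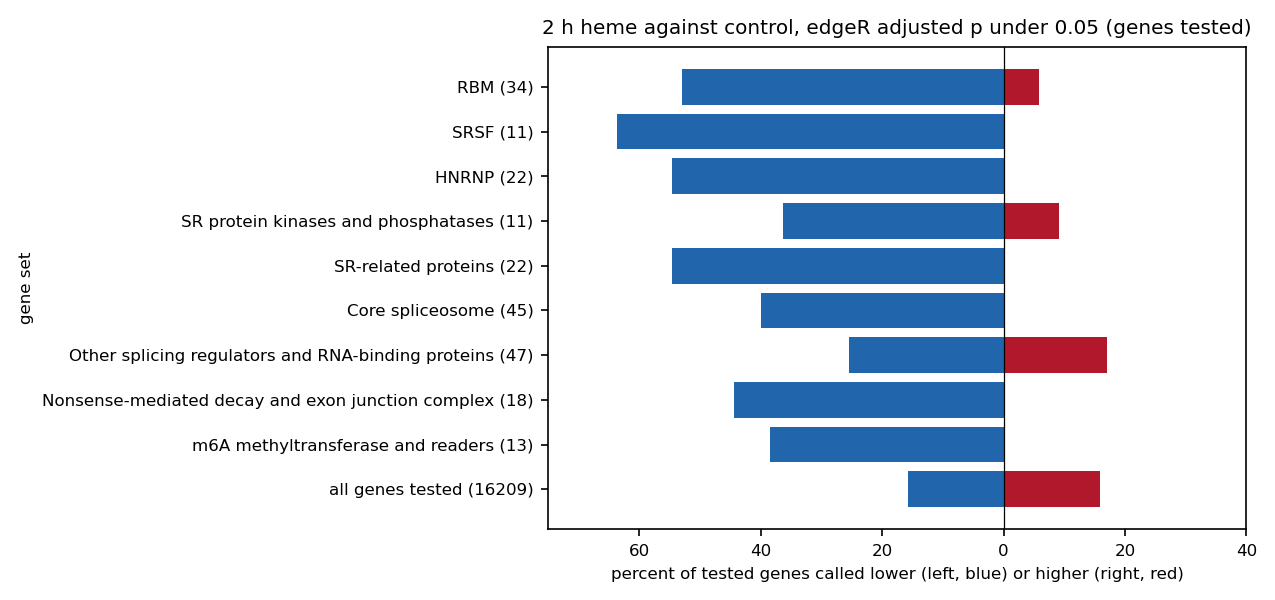
Percent of tested genes called lower (bars to the left) or higher (bars to the right) at 2 h of heme against control in the 3 families, the related lists and all genes, with the number tested in brackets. The SRSF genes reach the largest share lower (7 of 11), while all genes tested stand at 15.8% lower and 15.9% higher.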

How the data were processed

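Per the labels' protocols, cells were lysed in Trizol for RNA and an Illumina TruSeq kit was used for the libraries. What the authors deposited are counts of reads for each gene symbol, unnormalized, with 1 table per library laid out as HTSeq does. Trimmomatic, STAR, SAMtools, deepTools and the build hg38 are named in the submitters' processing notes. The sources used here give no versions, and the annotation release, the read layout and the strand setting are likewise not given in them, so reads of overlapping genes and close paralogs cannot be told apart. The 5 summary lines entered neither library sizes nor tests; of these, reads outside genes made up 5.48% to 6.88% of a library and ambiguous reads 4.23% to 4.48%. All 6 libraries entered a single edgeR 4.0.16 model (R 4.3.3) with TMM scaling after filterByExpr at a minimum count of 10, which left 16209 genes and 3 residual degrees of freedom. The quasi-likelihood test was two-sided, with Benjamini-Hochberg adjustment over all genes and a threshold of 0.05. CPM values use the TMM-scaled library sizes. SE is the log2 difference divided by the root of its F statistic. Limits for a count of 0 use the library totals before that scaling and cover counting error only. No pair of replicates looked like the same library deposited again, with a chi-square of 9.11 to 34.2 per gene. The alternatives were DESeq2 1.42.0, DESeq2's size factors within edgeR, no low-count filter, the replicate number as a block, a fit of the compared groups alone, and each library left out. The members, role groups and lists were chosen with earlier results of these data known. Values in every library are given for the SRSF genes tested and, in the RBM and HNRNP families, for the 5 largest called rises and falls against control. HNRNPLL, RBM15, ESRP1, ESRP2 and PPP1R10 were given in that detail after their values were seen. In 4 h against 2 h the 3 members of each family with the smallest p are named, and in each related list the 4 genes with the smallest p at 2 h and in 4 h against 2 h. Those of 4 h against control, where 0 were called, are given as counts. DYRK1A at 2 h and YTHDF2 were added after their values were seen. Some of the markers set for PC3 are not reported here.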

Additional observations from a re-analysis of the deposited data

Results flagged for a closer look

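The difference from control was not the same at 4 h as at 2 h for 32 of the 67 tested members, by the edgeR quasi-likelihood test of 4 h against 2 h itself (adjusted p under 0.05), which called 28.1% of all genes. The values that follow are log2 differences, 4 h minus 2 h, each from 2 libraries against 2. Among the SRSF genes they were SRSF2 0.80, SRSF7 0.70, SRSF1 0.67, SRSF8 0.48, SRSF10 0.46, SRSF3 0.42 and SRSF4 0.35. Among the RBM genes the positive ones were RBM34 1.05, RBM12 0.83, RBM25 0.77, RBM43 0.69, RBM19 0.68, RBM26 0.66, RBM14 0.59, RBM18 0.47, RBM45 0.42, RBM28 0.42, RBM27 0.40, RBM4B 0.37, RBM39 0.34, RBM22 0.32, RBM5 0.31 and RBM3 0.27. Among the HNRNP genes the positive ones were HNRNPDL 0.53, HNRNPF 0.53, HNRNPAB 0.52, HNRNPU 0.52, HNRNPR 0.44 and HNRNPM 0.29. The negative ones were RBM47 -0.64, HNRNPLL -0.39 and RBM15B -0.35. Of these, RBM34 had at most 1.07 CPM in any library, and RBM34, RBM5, HNRNPM, RBM3 and RBM45 were called under 5 or fewer of 11 alternatives. RBM4B, RBM43 and HNRNPLL were called here while none of the 3 passed the test against control at 2 h or at 4 h. Leaving out 1 library ended the call of 17 of these 32 in at least 1 case, with edgeR adjusted p up to 0.398. No group had the 4 samples that a check for single outlying libraries needs.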

How the results depend on the processing

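Every alternative kept the sign of the members' median difference at 2 h, which ran from -0.39 without 2 h replicate 2 to -0.28 without 2 h replicate 1 when single libraries were left out. Leaving out single libraries gave 20 to 38 members lower and 1 to 3 higher at 2 h. In 4 h against 2 h it gave 14 to 35 members higher and 1 to 3 lower, with a median between 0.21 and 0.34; of all genes 6.91% were higher where 14 members were and 19.1% where 35 were. Without the filter on low counts that median was 0.31, over 73 members. With only the compared groups in the fit 1 member was lower in 4 h against 2 h. At 4 h against control every alternative called 0 members. Of the 37 members lower at 2 h, 16 were called lower under all 11 alternatives, and of the 29 higher in 4 h against 2 h 14 were called higher under all 11. DESeq2 called 37 members lower and 2 higher at 2 h, and 19.6% and 15.7% of the 14671 genes to which it gave an adjusted p. With the replicate block, 34 members were lower and 2 higher at 2 h (14.6% and 15.1% of all genes), and 26 were higher and 3 lower in 4 h against 2 h (12.7% and 13.3% of all genes). Same-numbered libraries did not deviate together over all genes (correlations of deviations from group means -0.0908, 0.065 and -0.0162), so the numbers were not taken as pairs. The cause of these differences was not tested, and leaving out a library also leaves fewer samples. Counts over all genes at 2 h ran from 2321 to 6254 when single libraries were left out.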
